A study of Mus musculus with 2 samples.

Results

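Regulatory T cells are a CD4 T cell lineage that restrains other immune cells, and in many mouse tumors they gather next to effector T cells. 7 genes that are used to recognise them were followed across T cells of subcutaneous ovarian tumors: the transcription factors Foxp3 and Ikzf2 (Helios), the high-affinity interleukin-2 receptor chain Il2ra (CD25), the costimulatory receptors Tnfrsf18 (GITR), Tnfrsf4 (OX40) and Icos, and the chemokine receptor Ccr8. They were taken from a list of names, and all 7 of them were matched among the 32285 genes of the count tables. Foxp3 defines the lineage and keeps its program in place, whereas Il2ra lets these cells take up interleukin-2 at low concentrations through Jak and Stat5 signalling. The other members are not private to regulatory T cells: Tnfrsf18, Tnfrsf4 and Icos are also induced on activated conventional T cells, and Ikzf2 is made by natural killer cells and by subsets of CD8 and gamma delta T cells.

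The tumors were grown from SO cells, a mouse ovarian cancer line without p53 and with introduced Hras and Myc oncogenes, under the skin of C57BL/6 female mice aged 6 to 8 weeks. The hosts were either WT or TSK, and TSK mice carry the tight skin mutation, a duplication inside the fibrillin gene Fbn1 that is present in every cell of the host and not in the injected cancer cells. Tumors of several mice were pooled by genotype, dissociated without selection of a cell type, and sequenced as 1 library of RNA 3′ ends per genotype, so that genotype, pool and library cannot be told apart and no difference between them has a test. Intervals given here are exact 95% intervals that cover counting error only. The unit of counting is the unique molecular identifier (UMI), a tag that lets each captured RNA molecule be counted once.

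A barcode was kept as a cell with at least 200 genes, at least 500 UMIs and at most 10% mitochondrial UMIs, and 263 barcodes that occurred in both libraries were left out. This kept 1442 WT cells and 2961 TSK cells, and a cell was called a T cell with at least 2 UMIs over the T cell receptor complex genes Cd3d, Cd3e, Cd3g and Trac. T cells numbered 470 in WT (32.6%, 30.2 to 35.1%) and 290 in TSK (9.79%, 8.75 to 10.9%), with medians of 6912 and 3224 UMIs per cell. Each of the 4 markers was found in 67.2% to 92.1% of the T cells of a library. A limit that touches every comparison below is that 14 WT and 34 TSK T cells also met the marker rule of another, non-lymphoid or B cell type. These mixed cells held 9.12% of the UMIs of WT T cells and 41.4% of those of TSK T cells, so ratios of member levels between groups of T cells are given with and without them where these differ by over 1.5-fold.

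By Cd4 and Cd8a, the WT T cells comprised 64 Cd4+Cd8a- cells, 116 cells with neither gene, 287 Cd4-Cd8a+ cells and 3 cells with both. The TSK T cells comprised 28, 130, 131 and 1 cells in the same order. The cells with neither gene made up 24.7% of WT and 44.8% of TSK T cells, and after each cell was reduced to 1000 UMIs, Cd4 was found in 4.16% of WT and 3.61% of TSK T cells and Cd8a in 22.8% and 21.6%. A T cell with neither gene is therefore not shown to lack both, and this group can hold CD4 and CD8 T cells alike.

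RefSeq promoter windows, from 250 bases before to 50 bases after a transcription start, were given for 5 of the 7 members (6 windows, mouse build GRCm38.p6). Both windows of Foxp3 lie inside the span of the gene on chromosome X (7573644 to 7595245 in GENCODE M21). Tnfrsf4 (chromosome 4, 156013843 to 156016612) and Tnfrsf18 (chromosome 4, 156026164 to 156028895) are neighbours on the same strand, 9552 bases apart. The windows were searched on both strands for 4 motifs of factors that act in activated T cells, and the 3 windows with a match are shown because these genes were found in the same cells, as described below. Capitals mark the STAT motif TTCNNNGAA in Foxp3 (in overlap with the NFAT motif TGGAAA, read on the other strand) and in Tnfrsf18, and the NFAT motif in Tnfrsf4, also on the other strand.
Foxp3 (chrX:7580233-7580532, + strand): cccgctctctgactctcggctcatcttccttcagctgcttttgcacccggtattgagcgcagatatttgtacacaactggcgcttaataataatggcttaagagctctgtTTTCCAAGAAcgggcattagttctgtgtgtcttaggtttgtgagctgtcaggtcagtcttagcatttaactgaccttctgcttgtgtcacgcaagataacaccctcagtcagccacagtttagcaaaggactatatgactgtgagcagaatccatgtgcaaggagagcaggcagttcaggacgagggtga
Tnfrsf18 (chr4:156026072-156026371, + strand): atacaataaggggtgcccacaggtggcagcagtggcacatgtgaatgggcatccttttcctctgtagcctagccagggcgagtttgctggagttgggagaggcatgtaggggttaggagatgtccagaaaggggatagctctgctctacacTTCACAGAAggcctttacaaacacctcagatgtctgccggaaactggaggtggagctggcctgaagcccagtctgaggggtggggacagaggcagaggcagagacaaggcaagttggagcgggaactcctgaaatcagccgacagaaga
Tnfrsf4 (chr4:156013445-156013744, + strand): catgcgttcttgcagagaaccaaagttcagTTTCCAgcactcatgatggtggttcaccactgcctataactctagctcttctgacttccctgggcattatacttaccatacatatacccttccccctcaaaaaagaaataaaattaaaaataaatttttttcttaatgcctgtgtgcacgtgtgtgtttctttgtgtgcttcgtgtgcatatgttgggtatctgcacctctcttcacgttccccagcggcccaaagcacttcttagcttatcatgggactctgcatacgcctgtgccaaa
The STAT motif occurred in 8.30% and the NFAT motif in 21.4% of all 32851 promoter windows, so a match is common. The other Foxp3 window and those of Il2ra and Ccr8 held none of the 4 motifs, and the forkhead motif TGTTTAC (3.65% of all windows) and the AP-1 motif TGANTCA (7.81%) were in none of the 6 windows. Ikzf2 and Icos are named without a window.

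Foxp3 was a rare transcript in both libraries. It was found in 14 of 470 WT T cells (2.98%, 1.64 to 4.95%) with 49 UMIs, and in 13 of 290 TSK T cells (4.48%, 2.41 to 7.54%) with 23 UMIs. The share in TSK over that in WT was 0.59 on the log2 scale (-0.62 to 1.79) which includes 0. With every cell reduced to 1000 UMIs the shares were 1.20% and 1.89%. Macrophage-like cells, which should lack Foxp3, had it in 0 of 273 WT cells, which allows a share of up to 1.10% (3 cells of the total, as for each count of 0 here), and in 0 of 424 TSK cells, which allows up to 0.708%, at medians of 10681 and 6953 UMIs.

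Foxp3 lay on the CD4 side of the T cells in WT, and mostly in cells with neither gene in TSK. In WT, it was found in 9 of 64 Cd4+Cd8a- cells (14.1%), in 5 of 116 cells with neither gene (4.31%) and in 0 of 287 Cd4-Cd8a+ cells, which allows up to 1.05%. In TSK, it was found in 2 of 28 Cd4+Cd8a- cells (7.14%), in 10 of 130 cells with neither gene (7.69%), in the 1 cell with both genes, and in 0 of 131 Cd4-Cd8a+ cells, which allows up to 2.29%. Of the 27 Foxp3+ T cells of both libraries, 15 had no Cd4 UMI, so a Cd4 requirement would lose most of the TSK cells (10 of 13). The Foxp3 level in WT was 57.7 CPM (UMIs per 1000000 UMIs of the group, 40.2 to 80.2) in Cd4+Cd8a- cells. This was 44.3-fold the level that 3 UMIs would give in Cd4-Cd8a+ cells, and the interval of the log2 ratio began at 5.09. In TSK, 3 UMIs in Cd4+Cd8a- and 0 in Cd4-Cd8a+ cells gave an interval that began at -0.23 and so included 0.

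The 27 Foxp3+ T cells carried most of the other members. Ikzf2 was found in 26 of them and Icos in 24. In WT, 11 of the 14 cells had 5 of the other 6 members, and 2 cells had only Ikzf2 (with 85 and 6 UMIs). In TSK, whose cells were shallower, 10 of the 13 cells had at least 4 of the other members and 1 cell had all 6. Foxp3 itself ranged from 1 to 10 UMIs per cell in WT (median 3) and from 1 to 4 in TSK (median 1), and 3 WT and 7 TSK cells rested on 1 UMI.

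**Figure D1:**
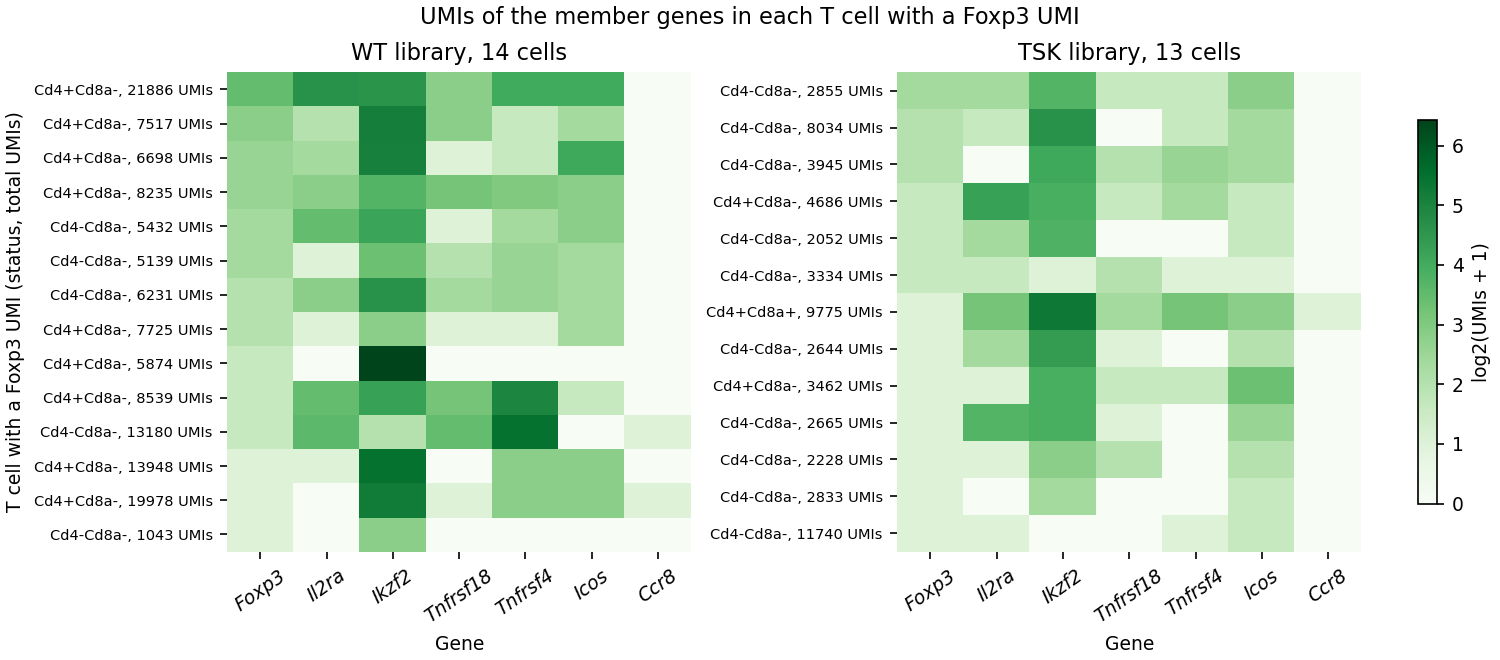
UMIs of the 7 member genes (columns, colour as log2 of UMIs plus 1) in each T cell with a Foxp3 UMI (rows, labelled with Cd4 and Cd8a status and total UMIs), 14 WT cells on the left and 13 TSK cells on the right, sorted by Foxp3 UMIs. The Ikzf2 column is dark in nearly all rows, whereas Ccr8 is found in 2 WT cells and 1 TSK cell.

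The other transcription factor among the members, Ikzf2, was higher in T cells with Foxp3 than in those without. In the Foxp3+ cells it ranged from 3 to 85 UMIs per cell in WT (median 20.5) and from 0 to 38 in TSK (median 14). The median depth of Foxp3+ and Foxp3- cells was 7621 and 6898 UMIs in WT, and 3334 and 3223 in TSK. Ikzf2 was found in 14 of 14 Foxp3+ and 149 of 456 Foxp3- WT cells (32.7%), and in 12 of 13 Foxp3+ and 58 of 277 Foxp3- TSK cells (20.9%). The level was 2656 against 402 CPM in WT, a log2 ratio of 2.72 (2.55 to 2.89), and 2921 against 176 in TSK, a log2 ratio of 4.06 (3.77 to 4.34). Foxp3+ cells held 3.50% of all UMIs of WT T cells and 19.4% of their Ikzf2 UMIs; in TSK they held 4.15% and 41.9%.

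Il2ra, the receptor chain, was found in 11 of 14 Foxp3+ and 99 of 456 Foxp3- WT cells (78.6% and 21.7%). In TSK it was found in 11 of 13 Foxp3+ and 43 of 277 Foxp3- cells (84.6% and 15.5%). The log2 ratio of its level was 2.48 (2.11 to 2.84) in WT and 3.44 (2.96 to 3.91) in TSK. Foxp3- cells still held most Il2ra UMIs, 379 of 456 in WT and 121 of 178 in TSK, and 1 WT cell held 67 of the WT UMIs.

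The TNF receptor members were likewise enriched. Tnfrsf4 was found in 12 of 14 Foxp3+ and 66 of 456 Foxp3- WT cells (log2 ratio of the level 3.95, 3.62 to 4.27), where 1 Foxp3+ cell held 43 of its 126 UMIs, and in 8 of 13 and 45 of 277 TSK cells (2.83, 2.12 to 3.49). Tnfrsf18 was found in 11 of 14 and 156 of 456 WT cells (2.20, 1.74 to 2.64) and in 9 of 13 and 63 of 277 TSK cells (2.49, 1.73 to 3.20). Both receptors were thus more frequent among Foxp3+ cells in each library, although Foxp3- cells held the larger number of UMIs of both.

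Icos and Ccr8 had smaller or less certain contrasts. Icos was found in 11 of 14 Foxp3+ and 334 of 456 Foxp3- WT cells (78.6% and 73.2%), and in 13 of 13 and 178 of 277 TSK cells (64.3% of the latter), with a log2 ratio of the level of 0.46 (0.10 to 0.80) in WT and 1.03 (0.58 to 1.45) in TSK. Ccr8 had 16 UMIs in all WT and 17 in all TSK T cells, of which 2 and 1 were in Foxp3+ cells. Its log2 ratio was 1.98 in WT (1.08 without mixed cells) and 0.53 in TSK, with intervals that span 0, so that enrichment was not detectable at this depth. Among cells with Ccr8, 8 of 14 in WT and 9 of 11 in TSK had Tnfrsf4, against 70 of 456 and 44 of 279 T cells without it. Tnfrsf18 was found in 8 of 14 and 8 of 11 of them, against 159 of 456 and 64 of 279, and Ikzf2 in 8 of 14 and 4 of 11, against 155 of 456 and 66 of 279.

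**Figure D2:**
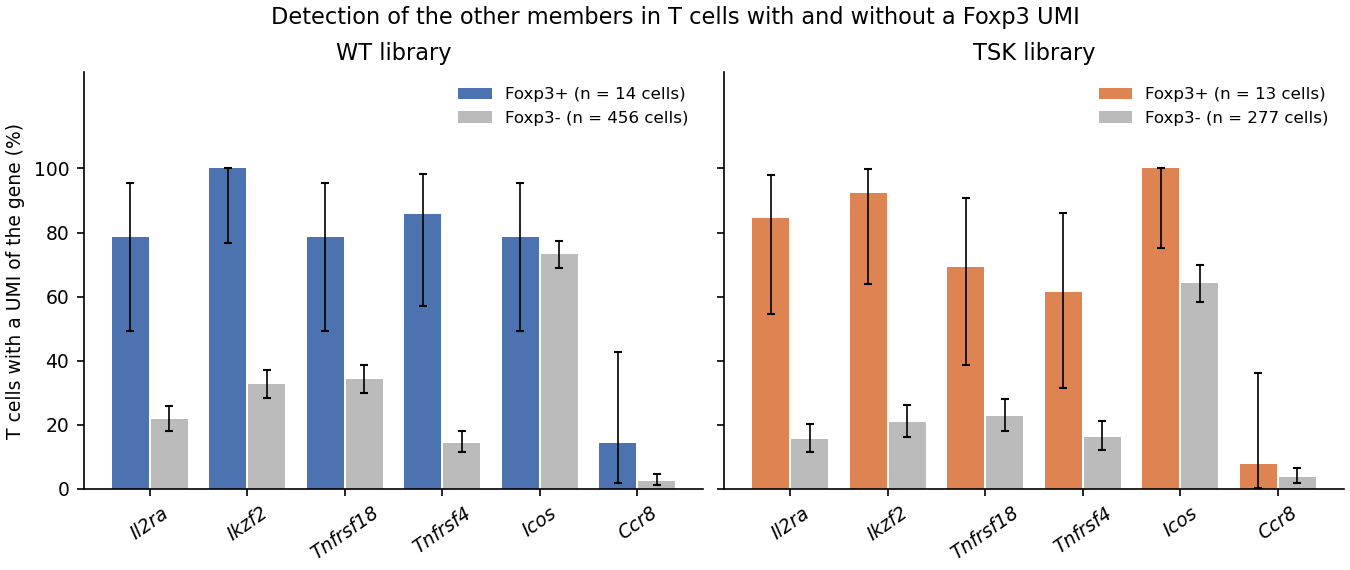
Share of T cells with a UMI of each of the other 6 members (vertical axis, percent) among Foxp3+ cells (coloured bars) and Foxp3- cells (grey bars), in the WT library (14 and 456 cells) and the TSK library (13 and 277 cells), with exact 95% binomial intervals. Il2ra, Ikzf2, Tnfrsf18 and Tnfrsf4 stand higher in Foxp3+ cells in both libraries, while the bars of Icos in WT are nearly level (78.6% and 73.2%).

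Read against all genes, 4 of the 6 other members (Il2ra, Ikzf2, Tnfrsf18 and Tnfrsf4) were at least 2-fold higher in Foxp3+ cells in both libraries, as were 3.55% of 10356 genes with at least 20 UMIs over all T cells. The opposite, at least 2-fold lower in both, held for 16.6% of these genes and for none of the 6. That share includes genes with few UMIs, since a gene without a UMI in Foxp3+ cells counted as lower. Foxp3+ cells held only 3.50% of the UMIs of WT and 4.15% of those of TSK T cells. These contrasts are between cells of 1 pool each and carry no test. Foxp3+ cells were also compared with the Foxp3- cells most like them, the Cd4+Cd8a- ones, where the members differed to unequal degrees and not all beyond counting error. Against these, Ikzf2 was higher by a log2 ratio of 5.0 (4.54 to 5.50) in WT and 6.47 (5.51 to 7.62) in TSK, where 7 of the 28 Cd4+Cd8a- cells were mixed cells. Without mixed cells these ratios were 4.80 (4.33 to 5.31) and 4.90 (3.89 to 6.14), on 8 UMIs in the Foxp3- TSK cells. Tnfrsf4 was higher by 1.75 (1.40 to 2.11) in WT and 1.73 (0.93 to 2.52) in TSK, and the TSK value without mixed cells was 0.94 (-0.02 to 1.93). Icos did not differ in WT beyond counting error (0.01, -0.39 to 0.38), and its TSK value of 1.89 (1.31 to 2.45) became 0.41 (-0.20 to 1.02) without mixed cells. Il2ra was higher by 1.42 (0.98 to 1.85) in WT and 3.55 (2.82 to 4.33) in TSK, or 1.93 (1.17 to 2.74) in TSK without mixed cells. Tnfrsf18 was higher by 0.87 (0.35 to 1.38) in WT and 2.25 (1.29 to 3.21) in TSK, and the TSK value without mixed cells was 0.75 (-0.25 to 1.76). The Ccr8 intervals included 0 in both libraries (0.62 in WT and -0.82 in TSK, or -0.46 and -1.88 without mixed cells). Of the other 6 members, Ikzf2 thus had the largest of these ratios in both libraries, with and without mixed cells, while Tnfrsf18 was found in 11 of 14 Foxp3+ and 34 of 55 of the Foxp3- Cd4+Cd8a- cells in WT.

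Cells with many members were not all Foxp3+. At least 4 of the other 6 members were found in 55 WT T cells, of which 12 had a Foxp3 UMI and 43 did not, and in 28 TSK T cells, of which 10 had a Foxp3 UMI and 18 did not. Of the 55 WT cells, 33 were Cd4+Cd8a-, 11 had neither gene and 11 were Cd4-Cd8a+. Whether those without a Foxp3 UMI lack the transcript cannot be read from these counts, since a cell that holds few molecules often yields no UMI.

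Genes outside the 7 members were then compared between Foxp3+ and Foxp3- T cells from lists of known function. Of the Foxp3- cells, 63.6% in WT and 47.3% in TSK had a Cd8a UMI, so these contrasts also set CD4 against CD8 T cells. The list genes were not compared with Foxp3- Cd4+Cd8a- cells, so a higher level is not shown to be particular to Foxp3+ cells. Of 12 genes for regulatory T cell effector functions, 6 were at least 2-fold higher in Foxp3+ cells in both libraries, beside 3.55% of all genes: the inhibitory receptor Ctla4, the cytokine subunit Ebi3, the adenosine-forming enzyme Nt5e, the latent TGF-beta anchor Lrrc32, the tissue repair factor Areg and the TGF-beta activating integrin chain Itgb8. Nt5e rested on 3 UMIs in TSK, with an interval that included 0 (-1.32 to 2.69). Areg was found in 11 of 14 WT and 9 of 13 TSK Foxp3+ cells, against 5.48% and 5.42% of Foxp3- cells, with log2 ratios of its level of 3.28 (2.83 to 3.72) and 3.16 (2.54 to 3.76). Ctla4 was found in all 27 Foxp3+ cells, but also in 72.1% of WT and 61.7% of TSK Foxp3- cells. The Gzmb transcript (granzyme B), on the same list, was not higher in either library (log2 ratios -1.04 and -0.51).

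Of 8 tested transcription factors of these cells, 3 were at least 2-fold higher in both libraries, beside 3.55% of all genes. They were the Helios relative Ikzf4, Maf and Gata3. Maf was found in 10 of 14 WT and 10 of 13 TSK Foxp3+ cells, with log2 ratios of 2.85 (2.45 to 3.23) and 3.04 (2.41 to 3.63), whereas Gata3 rested on 14 and 2 UMIs, with an interval that included 0 in TSK. Of 8 tested surface genes, 6 were at least 2-fold higher in both, beside 3.55% of all genes. They were Itgae, Tnfrsf9, Izumo1r, the interleukin-33 receptor Il1rl1, Klrg1 and Ccr4. Of these, Itgae rested on 4 and 2 UMIs with intervals that included 0 in both libraries (-0.71 to 2.68 and -1.26 to 4.11), and Ccr4 on 1 UMI in TSK (-3.77 to 4.68). The costimulatory receptor Tnfrsf9 (4-1BB) was found in 13 of 14 WT and 13 of 13 TSK Foxp3+ cells, against 23.5% and 31.0% of Foxp3- cells. In WT, the log2 ratio of Cd4+Cd8a- over Cd4-Cd8a+ cells exceeded that of Foxp3+ over Foxp3- cells for Maf (4.89), Gata3 (1.88), Il1rl1 (7.15) and Ccr4 (6.45). It was smaller for Ikzf4 (2.66), Itgae (-2.36), Tnfrsf9 (2.05), Izumo1r (3.41) and Klrg1 (1.72). In TSK it was larger for Il1rl1 (4.05) and Ccr4 (2.05), had no value for Izumo1r, and was smaller for the others.

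None of 9 tested genes of the interleukin-2 pathway was at least 2-fold higher or lower in both libraries. The Stat5 target Cish came closest (log2 ratios 1.28 and 0.94), with a TSK interval that included 0 (-0.22 to 1.92). Stat5b was higher beyond counting error in both, at 0.71 (0.23 to 1.16) in WT and 1.52 (0.92 to 2.07) in TSK. The ligand Il2 had 3 UMIs in WT and none in TSK T cells. Of 7 cytotoxic T cell genes, 4 (Cd8b1, Gzma, Gzmk and Ccl5) were at least 2-fold lower in both, beside 16.6% of all genes, and none was higher. Gzma and Gzmk had no UMI in Foxp3+ cells, and for Gzmk the TSK interval reached 0.88 and so included 0. Of 7 tested conventional CD4 T cell genes, Cd40lg and Ifng were past 2-fold in the lower direction in both, beside 16.6% of all genes. The lymph node homing receptor Ccr7 was past 2-fold in the higher direction in both, beside 3.55%. Cd40lg had no UMI in Foxp3+ cells, with intervals that included 0 in both libraries (upper limits 0.76 and 2.01), as did the TSK interval of Ifng (-3.55 to 0.32). Of 1588 genes that had at least 3 UMIs in the Foxp3+ cells of each library and at least 20 in all of them, the 10 ranked highest by the lower of their ratios were Foxp3, which defines the contrast, and Itgb8, Ighm, Klrg1, Ikzf4, Il1rl1, Neb, Gpr55, Areg and Lrrc32. These genes entered by their counts in Foxp3+ cells and were ranked by the same ratio, so their ratios are high in part by selection and are given as description only. Itgb8 was found in 7 of 14 WT and 6 of 13 TSK Foxp3+ cells, with log2 ratios of 7.69 (5.59 to 10.9) and 5.06 (3.72 to 6.47). Those ratios rest on 2 WT and 9 TSK UMIs in Foxp3- cells, and their intervals do not allow for the selection. Ighm, which is also a B cell marker, was found in 9 WT and 4 TSK Foxp3+ cells, and 1 Foxp3+ cell in each library was a mixed cell.

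Across the Cd4 and Cd8a groups, the receptors stood on the CD4 side in WT. Tnfrsf4 had the widest contrast, 351 CPM in Cd4+Cd8a- cells, 119 in cells with neither gene and 18.2 in Cd4-Cd8a+ cells; it was found in 48 of 64 Cd4+Cd8a- and 14 of 287 Cd4-Cd8a+ cells, and the log2 ratio of these groups was 4.27 (3.79 to 4.78). Il2ra was at 264, 195 and 60.3 CPM in the same order (2.13, 1.79 to 2.47), and Tnfrsf18 at 221, 98.2 and 55.1 (2.0, 1.64 to 2.36). The order of the groups was the same for these 3 genes, and only for Il2ra did the intervals of Cd4+Cd8a- cells and cells with neither gene overlap. For Il2ra, 1 cell held 67 of the 157 UMIs of cells with neither gene. The share of cells with Il2ra was 19.8% in that group and 19.5% in Cd4-Cd8a+ cells.

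In TSK, the CD4 contrast was smaller for some members when mixed cells were included. Tnfrsf4 had a log2 ratio of 2.28 (1.43 to 3.19) and Il2ra of 2.23 (1.40 to 3.12), while Tnfrsf18 had 0.63 (-0.20 to 1.44). Without mixed cells, Tnfrsf4 had 3.12 (2.14 to 4.14), Il2ra 3.72 (2.88 to 4.61) and Tnfrsf18 2.09 (1.21 to 2.94). Ccr8 had 6 UMIs in Cd4+Cd8a- and 3 in Cd4-Cd8a+ cells in WT (2.93, 0.70 to 5.55), and 8 and 1 in TSK (4.05, 1.15 to 9.52, and 4.92, 1.76 to 10.5, without mixed cells). Ccr8, Il2ra and Tnfrsf4 were thus higher in Cd4+Cd8a- cells in both libraries, beyond counting error. Among the members with at least 20 UMIs over both groups and libraries, Foxp3 (on 3 UMIs in TSK), Il2ra and Tnfrsf4 were at least 2-fold higher in Cd4+Cd8a- cells in both libraries, as were 4.97% of 9355 genes; no member was at least 2-fold lower there in both, as were 2.99%.

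For Ikzf2 and Icos, the contrast between Cd4+Cd8a- and Cd4-Cd8a+ cells was smaller and, in TSK, depended on the mixed cells. Ikzf2 was highest in cells with neither gene, at 849 CPM in WT and 446 in TSK, above both Cd4+Cd8a- cells (547 and 132) and Cd4-Cd8a+ cells (336 and 148). Its log2 ratio of Cd4+Cd8a- over Cd4-Cd8a+ cells was 0.70 (0.51 to 0.89) in WT and -0.17 (-0.77 to 0.40) in TSK, and 1.86 (1.22 to 2.48) in TSK without mixed cells. Without the few Foxp3+ cells, the ratio in WT changed sign, to -2.02 (-2.50 to -1.57), and to -1.83 (-2.32 to -1.37) when mixed cells were left out too. In TSK it was -2.17 (-3.35 to -1.18) without Foxp3+ cells, and -0.14 (-1.41 to 0.93) when mixed cells were left out too. Among Foxp3- WT cells, Ikzf2 was thus lower in Cd4+Cd8a- than in Cd4-Cd8a+ cells, at 82.9 (59.8 to 112) and 336 (313 to 360) CPM, whereas in TSK no difference was detectable without mixed cells (121 and 134 CPM, on 8 and 60 UMIs).

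Icos, a receptor of activated T cells, was found in 59 of 64 Cd4+Cd8a- and 227 of 287 Cd4-Cd8a+ WT cells. Its log2 ratio between these groups was 0.43 (0.25 to 0.61) in WT and -0.94 (-1.34 to -0.56) in TSK, and the TSK value changed sign without mixed cells (0.45, 0.02 to 0.87). It was the member found in most T cells in either library, 345 of 470 in WT (73.4%) and 191 of 290 in TSK (65.9%).

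**Figure D3:**
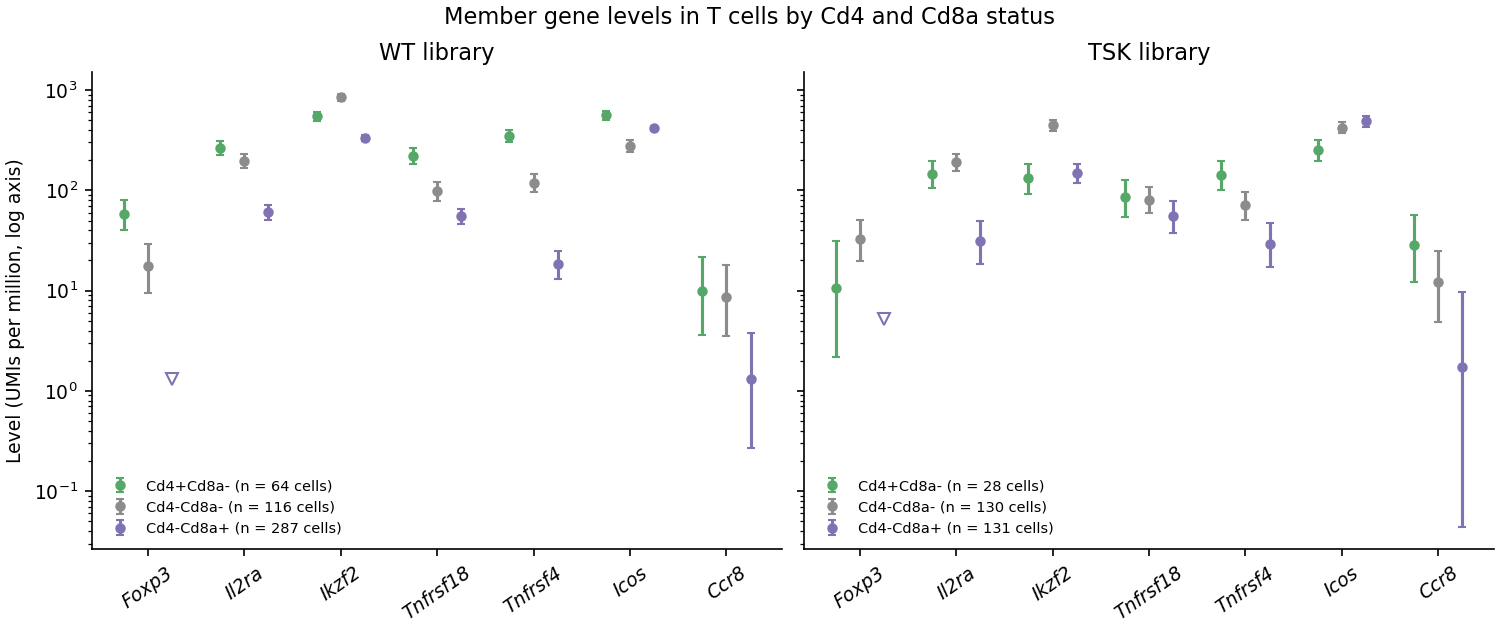
Levels of the 7 members in CPM (log axis) in T cells by Cd4 and Cd8a status, WT on the left (64, 116 and 287 cells) and TSK on the right (28, 130 and 131 cells), with exact 95% Poisson intervals; open triangles mark the level that 3 UMIs would give where no UMI was found. Tnfrsf4 steps down from Cd4+Cd8a- to Cd4-Cd8a+ cells, and Ikzf2 is highest in cells with neither gene.

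Between genotypes, the level of all 7 members over whole tumors was lower in TSK. The log2 ratio of TSK over WT over all cells was -3.24 (-3.38 to -3.11) for Ikzf2, -2.27 (-2.96 to -1.60) for Foxp3 and -1.26 (-2.28 to -0.22) for Ccr8, with the other members between these. T cells were 32.6% of WT and 9.79% of TSK cells, and Foxp3+ T cells relative to all cells stood at a log2 ratio of -1.14 (-2.35 to 0.05). A level over all cells also depends on the RNA of the other cells. T cells held 3749901 of 17070622 UMIs in WT and 1450519 of 45661542 in TSK. Cancer-like cells, described below, numbered 85 in WT and 940 in TSK, at medians of 34643 and 29528 UMIs. Fewer T cells, less RNA per T cell and more RNA from other cells cannot be told apart from such a level alone. The members were therefore compared within T cells.

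Within T cells the members did not move together. In all T cells, Ikzf2 was at 481 CPM in WT and 290 in TSK (log2 ratio -0.73, -0.89 to -0.58), and Tnfrsf4 at 93.6 and 73.1 (-0.36, -0.68 to -0.04). Il2ra (122 and 123), Icos (408 and 416), Foxp3 (13.1 and 15.9) and Tnfrsf18 (91.2 and 73.8) had intervals that included 0. Ccr8 was at 4.27 and 11.7 (1.46, 0.38 to 2.54), the only member past 2-fold in the higher direction, as were 19.4% of all 10356 genes; none was past 2-fold in the lower direction, as were 3.9%. The median log2 ratio of all genes was 0.27, so that against the typical gene Il2ra, Icos, Tnfrsf18, Tnfrsf4 and Ikzf2 lay lower in TSK.

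Leaving out the mixed cells moved these values up. Ikzf2 then had a log2 ratio of -0.13 (-0.29 to 0.04), Tnfrsf18 of 0.25 (-0.10 to 0.58) and Tnfrsf4 of 0.05 (-0.31 to 0.39). Il2ra had 0.64 (0.38 to 0.90), Icos 0.54 (0.40 to 0.68), Foxp3 0.88 (0.08 to 1.64) and Ccr8 1.90 (0.74 to 3.06), against a median of 0.14 over all genes. Ccr8 was again the only member past 2-fold, with 15 WT and 14 TSK UMIs, beside 5.93% of 8948 genes in the higher and 4.26% in the lower direction. The mixed TSK cells held 5 of the 7 members at no more than 31.6 CPM (Ikzf2 was at 56.6 and Icos at 106).

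**Figure D4:**
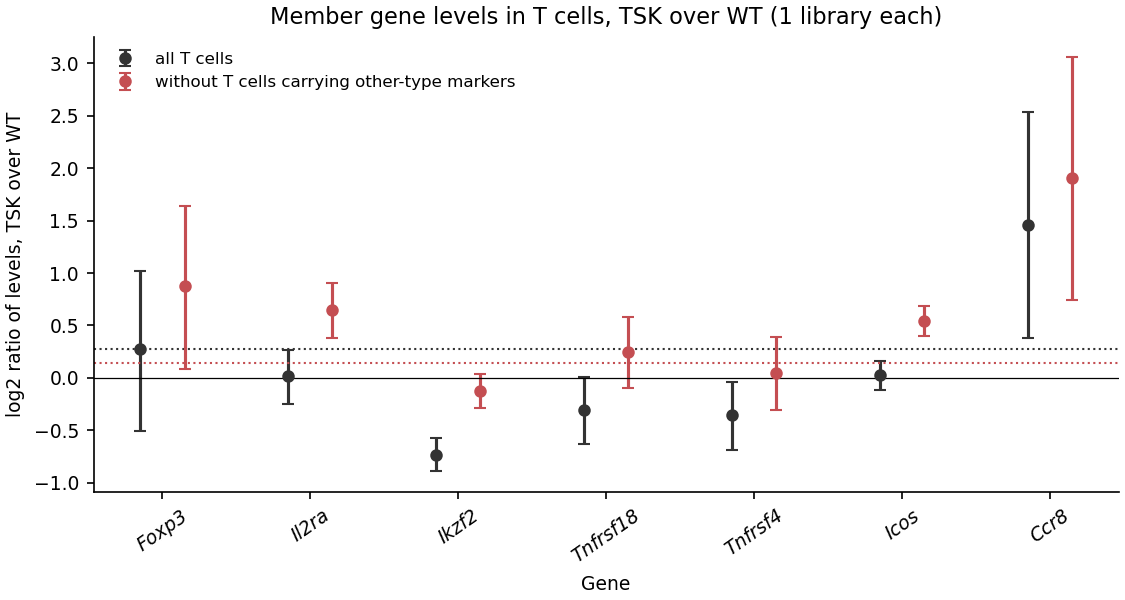
Log2 ratio of the level of each member in TSK over WT T cells, for all T cells (black, 470 WT and 290 TSK cells) and without T cells that carry markers of another type (red, 456 and 256 cells), with exact 95% counting intervals; dotted lines are the medians over all genes. Ccr8 lies highest (1.46 and 1.90), and Ikzf2 moves from -0.73 to -0.13.

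The groups of T cells did not share 1 direction. Without mixed cells, Ikzf2 was at 358 CPM in WT and 134 in TSK Cd4-Cd8a+ cells (-1.42, -1.82 to -1.04), whereas in cells with neither gene it was at 820 and 797 (-0.04, -0.26 to 0.17). Icos in cells with neither gene was at 285 and 674 (1.24, 0.96 to 1.52) and in Cd4-Cd8a+ cells at 435 and 581 (0.42, 0.21 to 0.62). Cells with neither gene were 24.7% of WT and 44.8% of TSK T cells, at medians of 5858.5 and 2761.5 UMIs. This group may thus hold a different mix of CD4 and CD8 T cells in each library. Among all WT T cells, Icos was at 277 CPM there, 559 in Cd4+Cd8a- and 414 in Cd4-Cd8a+ cells. How far such a mix enters the ratios of this group was not tested. The differences between groups were not tested. In the Foxp3+ cells alone, Ikzf2 (0.14, -0.13 to 0.40) and Tnfrsf18 (-0.10, -0.91 to 0.67) did not differ between the libraries beyond counting error. Il2ra was higher in TSK (0.69, 0.17 to 1.20) and Tnfrsf4 lower (-1.21, -1.89 to -0.58), on 14 and 13 cells of which 1 WT cell held 43 of the 126 Tnfrsf4 UMIs. Foxp3 itself stood at 0.03 (-0.75 to 0.78). These cells were chosen for a Foxp3 UMI, and 3 WT and 7 TSK cells held only 1, so that ratio cannot compare Foxp3 levels between the libraries.

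Dividing T cells, those with at least 2 UMIs over the cell cycle genes Mki67, Top2a, Birc5, Cdk1 and Ccnb1, were 14.5% of WT and 15.9% of TSK T cells. Without mixed cells, 63 of 456 WT and 29 of 256 TSK T cells were dividing, so that the TSK share was then the lower. TSK T cells were also shallower, which lowers the number of cells that reach 2 UMIs. Of the 27 Foxp3+ cells, 3 in WT and 4 in TSK were dividing. No member was at least 2-fold higher in dividing cells in both libraries, against 9.62% of all genes. The log2 ratio of Icos was -0.81 (-1.02 to -0.60) in WT and -1.76 (-2.08 to -1.45) in TSK, and that of Il2ra 0.52 (0.22 to 0.82) and -2.71 (-3.52 to -1.98). Leaving out mixed cells kept 29 of the 46 dividing TSK cells, and the TSK values were then -0.11 (-0.48 to 0.25) for Icos and -0.95 (-1.86 to -0.16) for Il2ra. Lower Icos in dividing cells was thus seen in WT, and in TSK was not detectable without mixed cells. None of the members was at least 2-fold lower in both, as were 1.55% of all genes.

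Most member UMIs of the tumors lay in T cells. T cells held 86.3% to 96.9% of the UMIs of each member in WT, and in TSK 64.5% to 89.5% with the exception of Tnfrsf4. Tnfrsf4 had 40.3% of its TSK UMIs in T cells and 49.4% in cancer-like cells. It was found in 74 of the 940 TSK cancer-like cells (4.50 CPM, against 73.1 in T cells). The marker list for cancer-like cells held Lgals7, Cdkn2a, Krt8, Krt18 and Krt19. Over both libraries, Lgals7, Cdkn2a and Krt18 were found in most of the cells so named, but Krt8 and Krt19 in few. After reduction to 1000 UMIs, 0.354% of these cancer-like cells and 6.93% of TSK T cells had Tnfrsf4, the former at a median of 29528 UMIs as sequenced. Ikzf2 was also found in NK-like cells, in 5 of 10 WT cells and 4 of 19 TSK cells (625 and 212 CPM).

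**Figure D5:**
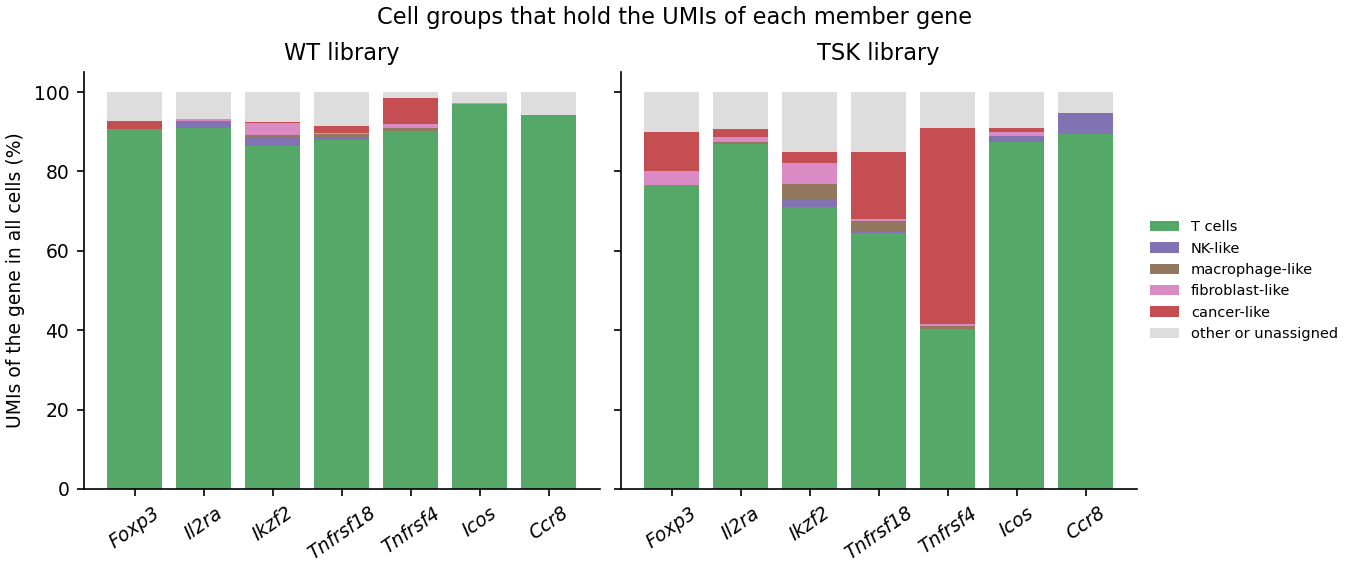
Share of the UMIs of each member (vertical axis, percent of its UMIs in all cells of a library) by the group of cells that held them, WT on the left and TSK on the right. T cells hold most UMIs, except for Tnfrsf4 in TSK, of which cancer-like cells hold 49.4%.

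The ligands of the members were looked up in the same tumors. Ccl8, a ligand of mouse Ccr8, was at 1358 CPM in WT and 2091 in TSK macrophage-like cells and at 299 and 140 in fibroblast-like cells. The OX40 ligand Tnfsf4 was at 12.7 and 5.78 in cancer-like cells, and the Icos ligand Icosl at 4.32 and 6.00 in macrophage-like cells (15 and 22 UMIs). Icosl was higher in neutrophil-like cells (18.8 and 6.70), on 2 and 5 UMIs. In WT it was also higher in NK-like, B-like and conventional dendritic-like cells, on 1, 1 and 3 UMIs. The GITR ligand Tnfsf18 and the other Ccr8 ligand, Ccl1, had at most 4 UMIs in any named group of either library. Ligand for Ccr8 was thus abundant in macrophage-like cells of both tumors, whereas Ccr8 itself was found in 14 WT and 11 TSK T cells.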

How the data were processed

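The authors deposited raw UMI counts per gene and barcode for 1 WT and 1 TSK library (10x Genomics 3′ chemistry), aligned to mm10 and counted with Cell Ranger (7.1.0 per the file headers, 7.1.1 per the submitters' processing notes; whether intronic reads were counted is not given in the sources used here). The WT library held 21225411 UMIs in 2332 barcodes and the TSK library 48296765 in 4436. Here cells were filtered without an upper limit of 10000 UMIs, which was an alternative. No doublet caller was run; T cells with at least 2 markers of another type (at least 5 UMIs per 10000) were flagged, and values are given without them. Cells were assigned to other types by the share of a marker list detected. Levels are UMIs per 1000000 UMIs of a group. Shares have exact binomial (Clopper-Pearson), levels exact Poisson and ratios exact conditional intervals (95%); the limit given for a count of 0 is 3 counts of the total, a little below the exact upper bound. Cells of a library share its source, so no test was made between libraries. Background shares used genes with at least 20 UMIs over both groups and a 2-fold difference. The members, lists and the rule for the 10 enriched genes were chosen with earlier results of these data known; 1 gene of the surface list is not reported here. Gene coordinates are from GENCODE M21 and promoter sequences from RefSeq (GRCm38.p6). Calculations, tested on simulated data, used scipy 1.17.1, pandas 2.3.3 and numpy 2.4.6 under Python 3.11.15, with figures from matplotlib 3.10.9.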

Additional observations from a re-analysis of the deposited data

Results flagged for a closer look

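Icos pointed in opposite directions in 2 groups of T cells: TSK over WT, its log2 ratio was -1.14 (-1.53 to -0.77) in Cd4+Cd8a- cells and 0.23 (0.04 to 0.43) in Cd4-Cd8a+ cells. The difference was not tested, since each genotype has 1 library. Of the 28 TSK Cd4+Cd8a- cells, 7 carried markers of another cell type, and without such cells the values were 0.25 (-0.18 to 0.65) and 0.42 (0.21 to 0.62), in the same direction.

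Foxp3 UMIs were also found outside the T cells, 5 in WT (4 cells) and 7 in TSK (5 cells). Cells without an assigned type held 4 and 3 of these UMIs, of which 3 and 1 lay in cells with 1 T marker UMI, just below the T cell rule. Cancer-like cells held 1 and 3 (0.35 and 0.10 CPM), and fibroblast-like cells held 1 in TSK. Among barcodes left out because both libraries contain them, 4 WT barcodes met the T cell rule and held 18 UMIs of the members, none of them Foxp3.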

How the results depend on the processing

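Each of 32 results was recomputed under 9 to 13 alternatives, 352 values in all, of which 300 stayed within the counting interval of the value reported, 47 left it and 5 changed the sign of a value whose interval excluded 0. Log2 ratios of TSK over WT in all T cells depended most on which cells counted. With at most 10000 UMIs and 10000 genes per cell they were 1.17 (Il2ra), -0.016 (Ikzf2), 0.21 (Tnfrsf18), 0.26 (Tnfrsf4, reversed) and 0.39 (Icos). Without mixed cells they were 0.64, -0.13, 0.25, 0.047 (Tnfrsf4, reversed) and 0.54, and with 1 T marker UMI enough for a T cell they were -0.63 (Il2ra), -1.35 (Ikzf2), -0.88 (Tnfrsf18), -0.94 (Tnfrsf4) and -0.58 (Icos). Equal weight for each cell gave 0.91 (Il2ra), -0.16 (Ikzf2), 0.10 (Tnfrsf18) and 0.41 (Icos). T cells that are not dividing gave 0.76, -0.25, 0.16 and 0.36 for the same genes. Scaling by the median of gene ratios gave -0.26 (Il2ra), -1.01 (Ikzf2) and -0.25 (Icos), T cells without NK receptor genes gave -0.89 (Ikzf2), and T cells without a Foxp3 UMI, an alternative chosen after seeing the data, gave -0.27 (Il2ra) and -1.20 (Ikzf2). The Ccr8 ratio was above 0 under every one of these alternatives, with an interval that included 0 where 1 T marker UMI was enough (0.88, -0.18 to 1.94). The Foxp3+ share of TSK over WT was -0.98 among Cd4+Cd8a- T cells and -1.14 among all cells. For Foxp3+ over Foxp3- cells, only the share with Tnfrsf4 in WT left its interval (1.45 among T cells without a Cd8a UMI). For Cd4+Cd8a- over Cd4-Cd8a+ cells, the UMI and gene limits gave 1.39 (Ikzf2), 2.58 (Tnfrsf18), 5.20 (Tnfrsf4) and 0.82 (Icos) in WT and 3.29 (Il2ra), 2.08 (Ikzf2), 1.82 (Tnfrsf18) and 0.57 (Icos, reversed) in TSK. Without mixed cells Icos was at 0.63 in WT, and Il2ra at 3.72, Ikzf2 at 1.86, Tnfrsf18 at 2.09 and Icos at 0.45 (reversed) in TSK. Cd4 calls from 2 UMIs gave 1.75 (Il2ra) and 0.50 (Ikzf2) in WT and -3.06 (Ikzf2) in TSK, and T calls from 4 marker UMIs gave 0.33 (Ikzf2) in WT. Without Foxp3+ cells Ikzf2 was at -2.02 (reversed) in WT and -2.17 in TSK, and Il2ra at 1.38 in TSK. Ratios of levels for Foxp3 status, for Foxp3- cells by Cd4 and Cd8a, and for dividing cells were recomputed without mixed cells, chosen after seeing the data; of 50, 36 stayed within the interval, 12 left it and 2 reversed, both in TSK: Icos in Foxp3- Cd4+Cd8a- over Cd4-Cd8a+ cells (from -1.14 to 0.33) and Ikzf2 in dividing cells (from -1.26 to 0.29). For the share with Ccr8 in Foxp3+ cells, 2 alternatives left no cell with Ccr8 and gave no value. The causes were not tested. No paired analysis was possible because each genotype has 1 library without a replicate number, and for the same reason no library could be left out. Depth limits Foxp3 (49 and 23 UMIs) and Ccr8 (16 and 17 UMIs) most.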
